A study of Mus musculus with 16 samples.

Results

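The enzymes that make and break down 25-hydroxycholesterol and related oxysterols, together with the receptor for their product, were described across brain tissue of mice that differed in the Ch25h gene and in a tau transgene. The set held 7 genes, found by symbol among the 54532 entries of the count table, and each symbol matched 1 entry. Bulk RNA sequencing had been done on 16 libraries from female mice aged 9 months, with 4 libraries in each of 4 groups. Mice with intact Ch25h and no tau transgene (Ch25h+/+ Tau-) stand beside mice with intact Ch25h that carry it (Ch25h+/+ Tau+), and mice lacking Ch25h are likewise without the transgene (Ch25h-/- Tau-) or with it (Ch25h-/- Tau+). The labels name neither the tau line, its promoter, nor the Ch25h allele, and they do not say whether animals were littermates. Nothing in them states that the samples came from separate animals, so p-values measure the spread between samples, which may be technical.

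Ch25h (cholesterol 25-hydroxylase) adds a hydroxyl group to cholesterol, and in macrophages and microglia it is induced by interferon and by inflammatory signals. Its product, 25-hydroxycholesterol, holds back cholesterol synthesis through the INSIG proteins, activates the liver X receptors and blocks entry of several viruses. Cyp7b1 and Hsd3b7 act on it in turn: Cyp7b1 adds a further hydroxyl group, giving the dihydroxy ligand of the chemotactic receptor Gpr183 (also called EBI2), and Hsd3b7 inactivates that ligand. Cyp27a1, a mitochondrial enzyme, makes 27-hydroxycholesterol. Cyp46a1, a neuronal enzyme, makes 24-hydroxycholesterol, the main form in which cholesterol leaves the brain, and Cyp39a1 hydroxylates 24-hydroxycholesterol further.

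In the mouse genome build GRCm38, which the submitters' processing notes name, Ch25h is a single-exon gene at chr19:34473778-34475164 on the minus strand. Cyp7b1 lies at chr3:18071950-18243338 on the minus strand with 6 exons, and Gpr183 at chr14:121952551-121965195 on the minus strand with at most 3 exons in a transcript. Hsd3b7 lies at chr7:127800604-127803802, Cyp27a1 at chr1:74713574-74737892, Cyp46a1 at chr12:108334381-108362234 and Cyp39a1 at chr17:43667425-43751431, all on the plus strand.

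The promoters of Ch25h and Gpr183 are shown because these were the members whose Ch25h+/+ libraries did not overlap between Tau- and Tau+. Each is the 250 bases before the RefSeq start site on GRCm38.p6, 5′ to 3′ on the gene's own (minus) strand, at chr19:34475149-34475398 for Ch25h and chr14:121965194-121965443 for Gpr183. Capitals mark matches to the motifs searched:
Ch25h: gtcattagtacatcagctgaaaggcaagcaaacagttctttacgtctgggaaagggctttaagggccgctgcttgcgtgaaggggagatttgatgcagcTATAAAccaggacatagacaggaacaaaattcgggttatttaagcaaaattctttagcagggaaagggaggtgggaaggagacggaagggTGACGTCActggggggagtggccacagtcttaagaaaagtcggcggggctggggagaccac
Gpr183: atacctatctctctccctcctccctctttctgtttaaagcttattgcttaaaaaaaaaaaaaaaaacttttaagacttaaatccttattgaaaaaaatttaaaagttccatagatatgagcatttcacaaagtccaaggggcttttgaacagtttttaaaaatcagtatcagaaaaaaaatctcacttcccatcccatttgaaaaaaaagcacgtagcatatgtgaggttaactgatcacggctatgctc
In the Ch25h window the matches were TATAAA at positions -151 to -146 and the palindrome TGACGTCA, the cyclic AMP response element, at -61 to -54, counted back from the start site. The window of Gpr183 held no match. The motifs were searched on both strands among 32851 promoters of the same length: TATAAA was found in 12.4% of them, TGACGTCA in 1.55%, the core of the interferon-stimulated response element (GAAA repeated after a short gap) in 2.98%, TTCNNNGAA (a STAT site) in 7.02%, CACGTG (an E-box) in 6.02%, GGGCGG (a GC box) in 32.7% and the direct repeat of AGGTCA bound by liver X receptors in 0.0152%. A match is a run of letters, not a measured binding site.

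Library totals ran from 15530352 to 25602500 counts. The sample labels give the tissue as frontal cortex, whereas the series text names hippocampus; the summed level of 6 cortical markers was 480.9 to 623.4 CPM (counts scaled to a common library size) and that of 6 hippocampal markers was 116.7 to 274.1 CPM. Choroid plexus markers ranged from 15.3 to 2753.1 CPM, within every group as well as between groups. Of the 8 Ch25h-/- libraries, 7 held more than 1000 CPM of the ribosomal RNA entry CT010467.1 and are called rRNA-rich here. Ch25h-/- Tau+ replicate 1 and all 8 Ch25h+/+ libraries did not, so that for most libraries this property and the genotype cannot be told apart. With library class as a covariate, Ch25h loss in Tau+ therefore sets Ch25h-/- Tau+ replicate 1 alone against the Ch25h+/+ Tau+ libraries. In Tau- mice class and genotype coincide. There the covariate is set only by the gap between Ch25h-/- Tau+ replicate 1 and the rest of its group. Over all genes Ch25h+/+ Tau+ replicate 1 stood farthest from its group, with a mean chi-square per gene of 24.67 to 39.54 against the other 3, which were 13.87 to 16.9 apart; Ch25h-/- Tau+ replicate 1 followed, at 20.09 to 26.7 against 8.333 to 10.61. Ch25h+/+ Tau+ replicate 1 also had the lowest astrocyte marker sum of all 16, 2360.8 CPM. Prnp, whose promoter drives the transgene in some tau mouse lines, was 2.14-fold higher in Tau+ libraries of both Ch25h genotypes, from 782.6 to 1677.0 CPM in Ch25h+/+ and from 756.0 to 1620.2 CPM in Ch25h-/-.

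Levels were compared between genes as CPM per kilobase of exon, averaged over the 16 libraries. Cyp46a1 was the most abundant member at 79.7 CPM per kb, above 97.5% of 17574 tested genes. Cyp7b1 followed at 4.38, Cyp27a1 at 2.75, Cyp39a1 at 0.93, Gpr183 at 0.476 and Ch25h at 0.24 CPM per kb. Hsd3b7 was counted near the limit of detection, at 0.0174 CPM per kb. Of its 2769 exon bases, 2746 are shared with other gene models, so this value and its place in the order may not reflect its expression. The range over single libraries of Cyp7b1 (3.65 to 5.06) overlapped that of Cyp27a1 (1.75 to 4.53), although Cyp7b1 was the higher in each of the 16. The range of Gpr183 (0.195 to 1.05) overlapped both Cyp39a1 (0.493 to 1.45), which was above it in 14 of 16 libraries, and Ch25h (0 to 0.91), which was below it in 13 of 16. The mean of Ch25h takes in the 8 libraries without the gene: in Ch25h+/+ mice it was 0.267 CPM per kb without the transgene and 0.694 with it, against 0.324 and 0.827 for Gpr183. Ch25h was above Hsd3b7 in 8 of 16 libraries. The values of each gene below are CPM, which is not divided by length.

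**Figure D1:**
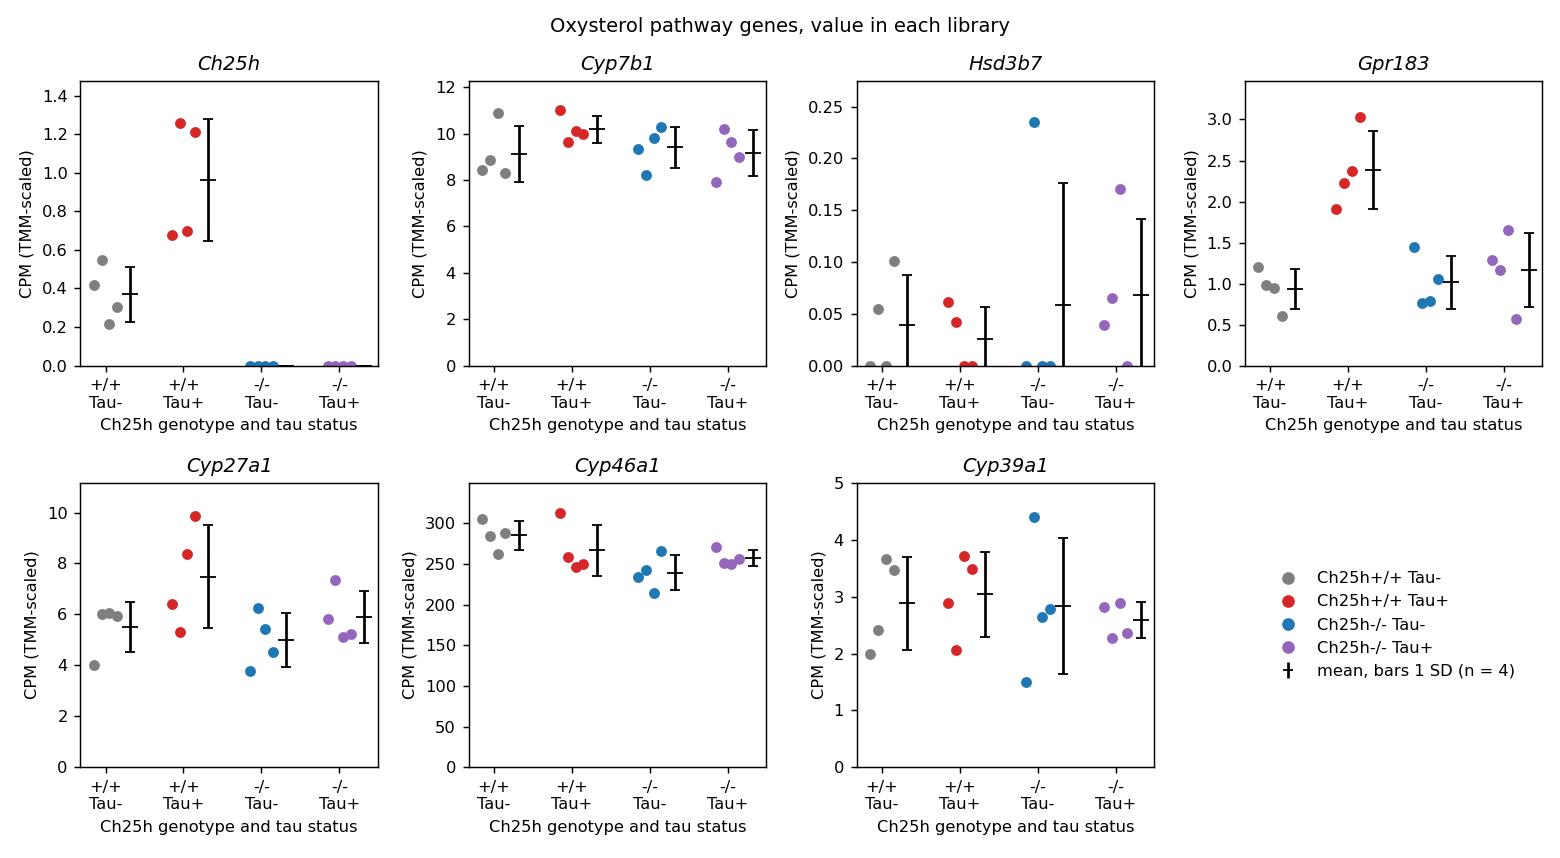
CPM of each member (y axis, linear, from 0) in every library of the 4 groups (x axis), with the mean and 1 SD (n = 4) in black. Ch25h lies at 0 in all 8 Ch25h-/- libraries, and the Ch25h+/+ Tau+ libraries of Gpr183 (1.91 to 3.03 CPM) lie above all others.

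Ch25h transcripts were found in all 8 Ch25h+/+ libraries and in none of the 8 Ch25h-/- libraries. In Ch25h+/+ Tau- the 4 libraries had 0.416, 0.547, 0.216 and 0.302 CPM, from 5 to 10 counts each. In Ch25h+/+ Tau+ they had 0.678, 1.26, 0.697 and 1.21 CPM, from 11 to 30 counts each. Every Tau+ library was above every Tau- library among the Ch25h+/+ mice, and the Ch25h-/- libraries were all at 0, including Ch25h-/- Tau+ replicate 1, the deepest library and the rRNA-poor one.

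The mean of Ch25h was 0.37 ± 0.144 CPM (SD, n = 4) in Ch25h+/+ Tau- and 0.963 ± 0.319 CPM (SD, n = 4) in Ch25h+/+ Tau+, a ratio of 2.6. The 30 and 82 summed counts carry exact 95% Poisson intervals of 20.2 to 42.8 and 65.2 to 101.8, which cover counting error only. By edgeR's quasi-likelihood test over 17736 genes the log2 fold change was 1.39 (SE 0.42, 95% interval 0.48 to 2.31), with an adjusted p of 0.193, so it did not pass the threshold of 0.05. With limma-voom and quality weights the adjusted p was 0.0182, and it was 0.137 to 0.341 under the other settings and 0.165 to 0.549 when a library was left out. The 2 higher Tau+ libraries (replicates 2 and 4) had 2287.6 and 1130.4 CPM of choroid plexus markers against 40.8 and 35.3 in the lower 2, whereas among Tau- libraries the lower 2 (replicates 3 and 4) had 1177.3 and 1425.9 and the higher 2 had 15.3 and 291.1; the part of these cells in the Ch25h level was not tested.

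Loss of Ch25h lowered the transcript as the genotype labels state. A floor of 3 counts per library gives at least 5.75-fold lower Ch25h in the Tau+ mice and at least 2.1-fold lower in the Tau- mice, with adjusted p of 0.00137 and 0.032 by edgeR. Ch25h passed the filter on low counts through its Ch25h+/+ libraries alone. Being the deleted gene, at 0 in every Ch25h-/- library, it serves here only as a check of the genotype labels. Whether its call passes in a given setting does not bear on the deletion. With GC-corrected offsets in edgeR the Tau- call did not pass (adjusted p = 0.0778). The fitted log2 fold changes, which depend on the prior count, were -7.24 in Tau+ and -5.84 in Tau-. They were the same with a covariate for library class, which nearly coincides with the Ch25h genotype. That fit leaves Ch25h-/- Tau+ replicate 1 alone in the Tau+ comparison, so its calls are not given. DESeq2 gave Ch25h no adjusted p in either comparison. The Tau- call was lost without Ch25h+/+ Tau+ replicate 4, without any 1 of the 4 Ch25h+/+ Tau- libraries or without Ch25h-/- Tau- replicates 1, 2 or 3, with an adjusted p of 0.0151 to 0.125 and fitted log2 fold changes of -6.02 to -5.62 over the 16 libraries left out in turn. The opposite-strand long noncoding gene Gm26902 shares 159 of the 1387 exon bases of Ch25h; it had 15 to 31 counts in Ch25h+/+ libraries, 22 in Ch25h-/- Tau+ replicate 1 and 4 to 13 in the other Ch25h-/- libraries, and its difference did not pass in Tau+ (log2 fold change -0.93, adjusted p = 0.158) or in Tau- (-1.29, adjusted p = 0.0966).

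Cyp7b1, which acts on 25-hydroxycholesterol, was measured at 140 to 253 counts per library. Mean levels without and with the transgene were 9.14 ± 1.21 and 10.2 ± 0.56 CPM in Ch25h+/+ mice and 9.43 ± 0.891 and 9.19 ± 0.99 CPM in Ch25h-/- mice (SD, n = 4 each). The groups overlapped in all 4 comparisons. The 95% intervals of the log2 difference were -0.10 to 0.41 for tau in Ch25h+/+, -0.30 to 0.22 for tau in Ch25h-/-, -0.40 to 0.10 for Ch25h loss in Tau+ and -0.21 to 0.30 for Ch25h loss in Tau-. The difference for Ch25h loss in Tau+ was -0.15, and -0.30 with GC-corrected offsets. It was -0.36 with the class covariate, which sets Ch25h-/- Tau+ replicate 1 alone against the Ch25h+/+ Tau+ libraries. The lowest adjusted p over the 8 other settings was 0.209.

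Hsd3b7, the enzyme that inactivates the Gpr183 ligand, had 0 to 4 counts per library and 0 in 8 of the 16. It was left out by the filter on low counts. The exact permutation test of its mean CPM, 4 libraries against 4, two-sided, gave p = 0.83 for tau in each Ch25h genotype, 0.371 for Ch25h loss in Tau+ and 1 for Ch25h loss in Tau- (adjusted p of 1 over the 4, smallest possible p 0.0286). Of its 2769 exon bases, 2746 are shared with other gene models, Gm49388 on the same strand and 9430064I24Rik on the opposite one, so its count is uncertain: how reads shared between genes were assigned is not given in the sources used here. Gm49388 had 0 counts in all 16 libraries and 9430064I24Rik had 1 to 22.

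Gpr183, the receptor, rose with tau where Ch25h was intact. The 4 Ch25h+/+ Tau- libraries had 1.2, 0.985, 0.949 and 0.605 CPM, and the 4 Ch25h+/+ Tau+ libraries had 1.91, 2.23, 2.37 and 3.03 CPM. The Ch25h-/- Tau- libraries had 1.45, 0.765, 0.783 and 1.06 CPM and the Ch25h-/- Tau+ libraries 1.29, 1.17, 1.65 and 0.562 CPM. All 4 Ch25h+/+ Tau+ libraries were above the other 12, and the other 3 groups overlapped. Replicate 1 of that group, the library farthest from its group over all genes, was the lowest of the 4.

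The rise of Gpr183 was 2.54-fold, from 0.935 ± 0.247 to 2.39 ± 0.473 CPM (SD, n = 4), a log2 fold change of 1.35 (SE 0.30, 95% interval 0.72 to 1.98) with an adjusted p of 0.024 by edgeR. In Ch25h-/- mice the means were 1.01 ± 0.318 and 1.17 ± 0.452 CPM, and the tau difference of 0.21 (95% interval -0.46 to 0.89) did not pass. The difference between these tau effects was -1.13 (95% interval -2.05 to -0.21), with an adjusted p of 0.937 by edgeR, so a difference between genotypes was not shown. Without Ch25h+/+ Tau+ replicate 1 the rise of Gpr183 was 1.44 (adjusted p = 0.0231), and without Ch25h-/- Tau+ replicate 1 it was 1.35 (0.0295). The call for Gpr183 passed under all 7 other settings in which the gene was tested and was lost without Ch25h+/+ Tau+ replicate 4 (log2 fold change 1.21, adjusted p = 0.116) and without Ch25h+/+ Tau- replicate 2 (1.38, 0.0611), 3 (1.36, 0.0612) or 4 (1.19, 0.0988).

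Between the Tau+ groups Gpr183 was lower in Ch25h-/- by 1.02 on the log2 scale (95% interval -1.64 to -0.40) and the libraries did not overlap, but the adjusted p was 0.0621. It passed with DESeq2 (0.0264) and limma-voom (0.0137). It did not pass in edgeR under the other settings without the class covariate (0.0606 to 0.132), nor when a library was left out (0.0511 to 0.172). The log2 difference was -1.12 with GC-corrected offsets and -1.02 with the 2 groups alone. With the class covariate, which sets Ch25h-/- Tau+ replicate 1 alone against the Ch25h+/+ Tau+ libraries, it was -0.89. In Tau- mice the difference was 0.11 (95% interval -0.57 to 0.79).

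Microglia, which express Gpr183, were followed through 7 marker genes (Tmem119, P2ry12, Cx3cr1, Csf1r, Aif1, Siglech and Sall1). In Ch25h+/+ mice their summed CPM spanned 232.1 to 255.3 without the transgene and 279.4 to 336.1 with it. In Ch25h-/- mice the spans were 227.8 to 255.2 and 235.7 to 270.1. The ratio of means for tau in Ch25h+/+ was 1.31 without overlap. All 7 had a log2 fold change above 0, against 47.8% of all genes, and Csf1r and Cx3cr1 passed the threshold, against 1.47% of all genes called higher. In bulk tissue more cells of a type and more RNA per cell cannot be told apart.

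Set against these markers, a ratio chosen after the values were seen, Gpr183 was 3.92 ± 1.07 CPM per 1000 microglia marker CPM in Ch25h+/+ Tau- (2.58 to 5.13) and 7.6 ± 0.976 in Ch25h+/+ Tau+ (6.83 to 9.03), without overlap, and 4.16 ± 1.15 and 4.73 ± 2.05 in Ch25h-/- Tau- and Tau+ (SD, n = 4 each). The same ratio for Ch25h was 1.57 ± 0.65 (0.845 to 2.36) and 3.07 ± 0.944 (2.13 to 4.11), with overlap. Markers of border macrophages (6 genes) in Ch25h+/+ mice summed to 4.69 to 12.4 CPM without the transgene and 11 to 17.5 with it, 1.66 times higher in the mean with overlap; per 1000 CPM of them Gpr183 was 113.2 ± 31.3 and 169.5 ± 48.9, overlapping. Lymphocyte markers (6 genes) in the same mice summed to 0.323 to 0.547 and 0.547 to 1.91 CPM, with Cd3d and Ms4a1 at 0 in both Ch25h-/- groups. Mural cell and fibroblast markers (5 genes) in Ch25h+/+ mice summed to 109.2 to 136.8 CPM without the transgene and 160.9 to 173.1 with it, a ratio of means of 1.36 without overlap, and in Ch25h-/- Tau+ to 144.7 to 160.4, below the Ch25h+/+ Tau+ libraries. The part of microglia, border macrophages, lymphocytes, mural cells and fibroblasts in the Gpr183 result was not tested.

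**Figure D2:**
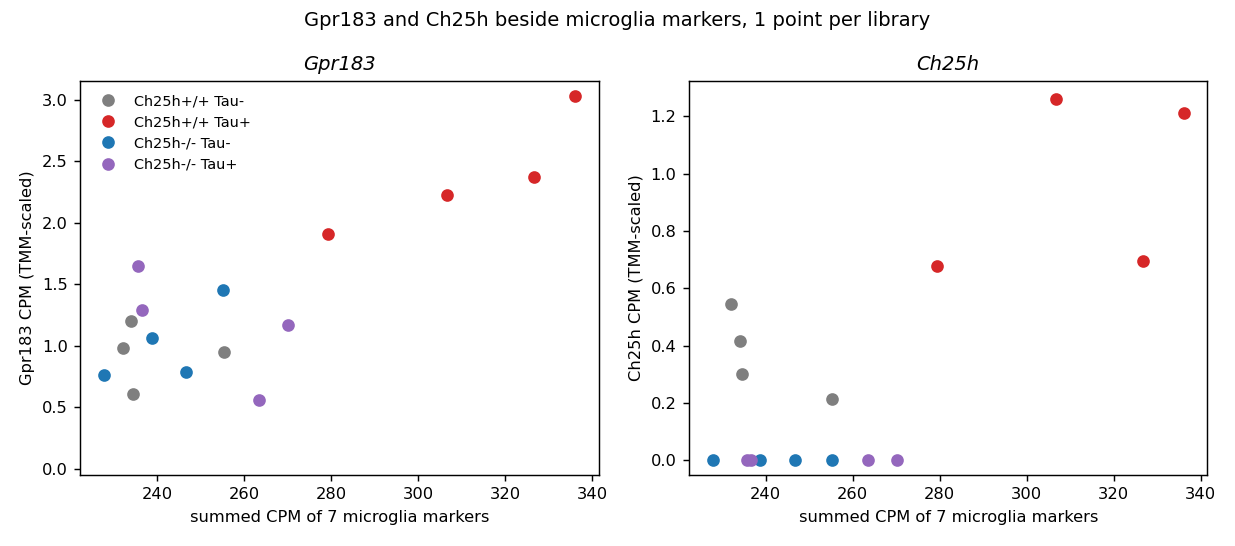
Gpr183 (left) and Ch25h (right) in CPM against the summed CPM of 7 microglia markers, 1 point per library, coloured by group. The Ch25h+/+ Tau+ libraries lie highest on both axes of the Gpr183 panel, with marker sums of 279.4 to 336.1 CPM.

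Cyp27a1 had 5.51 ± 0.992 CPM in Ch25h+/+ Tau-, 7.48 ± 2.03 in Ch25h+/+ Tau+, 4.99 ± 1.06 in Ch25h-/- Tau- and 5.88 ± 1.02 in Ch25h-/- Tau+ (SD, n = 4). The tau difference in Ch25h+/+ was 0.44 (95% interval 0.01 to 0.87, edgeR adjusted p = 0.506), with overlapping groups. The Tau+ libraries had 6.41, 5.3, 8.37 and 9.85 CPM. The highest 2, replicates 3 and 4, also had the highest oligodendrocyte marker sums, 4924.4 and 4554.0 CPM, against 2048.6 to 3802.3 in the other 14, and the part of that in the level was not tested. Per 1000 microglia marker CPM the means were 23 in Ch25h+/+ Tau- and 23.8 in Ch25h+/+ Tau+.

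Cyp46a1, with 3558 to 6933 counts per library, was the most precisely measured member. Its libraries had 305.2, 284.6, 262.4 and 288.4 CPM in Ch25h+/+ Tau-, 312.9, 258.5, 245.6 and 249.7 in Ch25h+/+ Tau+, 234.0, 242.5, 214.4 and 266.2 in Ch25h-/- Tau-, and 271.2, 250.5, 249.8 and 256.1 in Ch25h-/- Tau+. The groups overlapped in all 4 comparisons. Loss of Ch25h in Tau- mice gave the lowest mean, 239.3 ± 21.5 against 285.2 ± 17.6 CPM, a log2 difference of -0.25 (95% interval -0.43 to -0.08) with an adjusted p of 0.108 by edgeR. In the same comparison the summed neuronal markers had a ratio of 0.969 with overlap and the astrocyte markers 1.19 without overlap, and their part in the difference was not tested.

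This difference of Cyp46a1 depended on the processing. It passed with DESeq2 (adjusted p = 0.0484), limma-voom (0.0284) and without Ch25h+/+ Tau+ replicate 1 (0.0345). It was -0.04 with offsets corrected for GC content, an alternative added after the data were seen. Its longest transcript has 58.5% GC, the highest of the 7. With a covariate for library class it was -0.15, a value that Ch25h-/- Tau+ replicate 1 sets, since class and genotype coincide in Tau- mice. The tau differences were -0.10 (95% interval -0.27 to 0.08) in Ch25h+/+ and 0.10 (-0.07 to 0.28) in Ch25h-/-, and Ch25h loss in Tau+ gave -0.05 (-0.23 to 0.12).

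**Figure D3:**
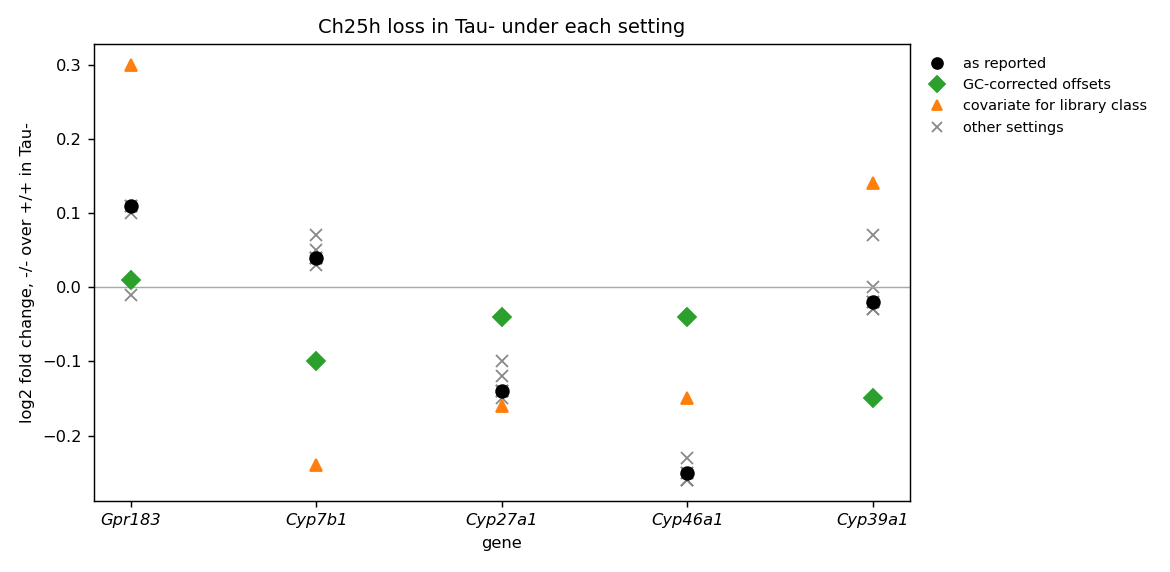
Log2 fold change for Ch25h loss in Tau- mice (y axis) of 5 members (x axis) under each setting, as reported (black), with GC-corrected offsets (green), with the library class covariate (orange) and under other settings (grey crosses). Cyp46a1 moves from -0.25 to -0.04 with GC-corrected offsets.

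Cyp39a1 averaged 2.88 ± 0.816, 3.04 ± 0.742, 2.84 ± 1.2 and 2.59 ± 0.313 CPM (SD, n = 4), the first pair in Ch25h+/+ mice without and with the transgene and the second in Ch25h-/- mice in the same order, and all comparisons overlapped. Its 95% intervals were wide, -0.50 to 0.65 for tau in Ch25h+/+ and -0.61 to 0.56 for Ch25h loss in Tau-, at 25 to 85 counts per library, and differences within them were not shown.

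Counted over members, tau in Ch25h+/+ mice raised 1 of 6 tested (Gpr183), against 1.47% of all 17736 genes called higher, and 2 of 6 did not overlap, against 5.86%. Tau in Ch25h-/- mice called 0 of 5 by edgeR, DESeq2 and limma-voom, against 0.0395% of genes called by edgeR. At an unadjusted p under 0.05 were 0 of 5, against 652 of 17736 genes in edgeR, and 0 of 5 did not overlap, against 2.14%. For loss of Ch25h, the deleted gene itself is left out of the count. In Tau+ mice edgeR called 0 of the other 5, against 3.55% of genes. Gpr183 alone of the 5 had an unadjusted p under 0.05 in edgeR, as had 4239 of 17736 genes. DESeq2 (8.46% of genes) and limma-voom (10.6%) called it, and 1 of 5 (Gpr183) did not overlap, against 10.2%. In Tau- mice edgeR called 0 of 5, against 1.03%. Cyp46a1 alone of the 5 had an unadjusted p under 0.05 in edgeR, as had 3700 of 17736 genes, about the same share. DESeq2 (5.91%) and limma-voom (7.83%) called it, and 0 of 5 did not overlap, against 16.2%. The interaction called 0 of 5 members with all 3 tools, against 0.0338% of genes by edgeR. Gpr183 alone had an unadjusted p under 0.05 in edgeR, as had 733 of 17736 genes. Ch25h is not among the 5, since both Ch25h-/- groups are at 0.

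**Figure D4:**
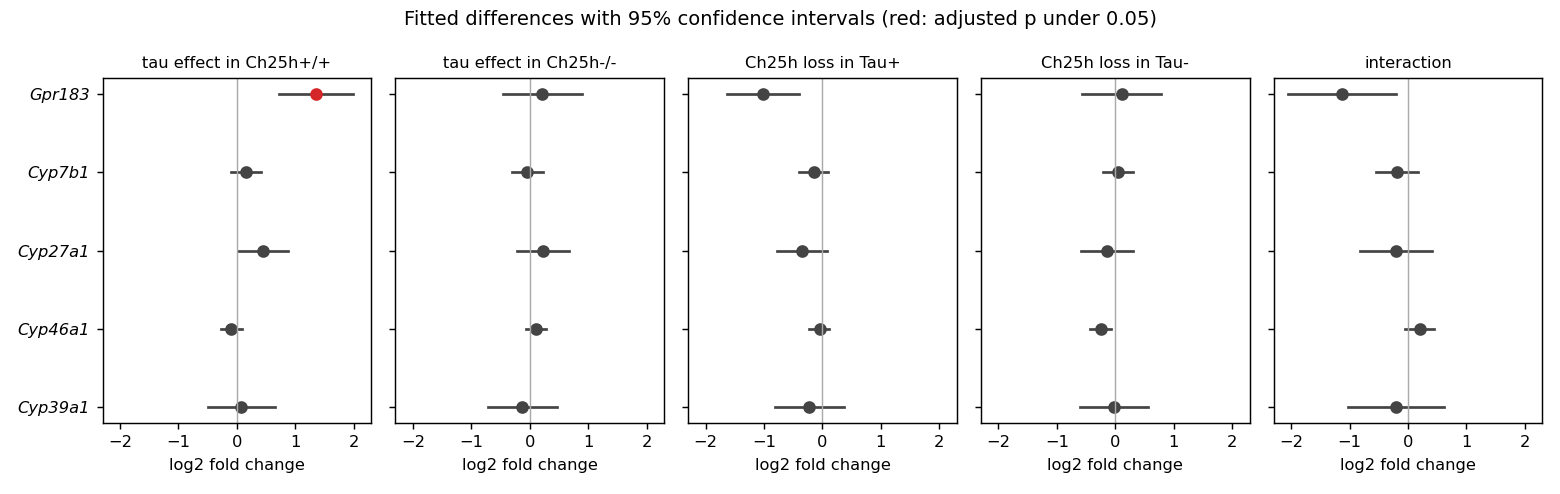
Log2 fold changes (points, x axis) with 95% confidence intervals (lines) of 5 members in the 4 comparisons and the interaction, red where the adjusted p was under 0.05. Gpr183 in Ch25h+/+ mice, at 1.35, is the red point.

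Genes whose levels followed each member most closely were found by Pearson's r of log2(CPM + 0.5) over the 16 libraries, as a description, since the libraries share group differences and depth. For Gpr183 they were Irf8 (0.93), Csf2rb (0.92) and Lyz2 (0.91), genes of myeloid cells. With group means removed these were 0.79, 0.80 and 0.68. For Cyp27a1 they were Pllp (0.90), Itgb4 (0.89) and Pmp22 (0.87). For Cyp46a1 they were Polr2c (0.92), Ppp1ca (0.92) and Plppr3 (0.91), for Cyp39a1 Kcnab3 (0.89), Runx2 (0.81) and Vamp1 (0.81), and for Cyp7b1 Gm11266 (0.78), Rab29 (0.77) and Vmac (0.75). For Ch25h, over the 8 Ch25h+/+ libraries, Fn1, Tnfrsf11b and H2-DMb1 each had 0.96, and 0.88, 0.92 and 0.88 with group means removed. They are the highest of 15492 genes compared over few libraries with low Ch25h counts, so such values can also arise by chance.

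Among genes that sense and carry oxysterols (16 tested), tau in Ch25h+/+ mice raised 1 of 16, against 1.47% of all genes, namely Npc2, a lysosomal cholesterol carrier, from 50.5 ± 1.21 to 71.4 ± 7.65 CPM (log2 fold change 0.50, edgeR adjusted p = 0.00253). The median over the list was 0.03, against -0.01 over all genes. Insig1, which encodes a protein through which 25-hydroxycholesterol restrains cholesterol synthesis, went from 75.6 ± 5.02 to 60.5 ± 3.71 CPM without overlap (-0.32, adjusted p = 0.14). Srebf1 was 0.39 higher (adjusted p = 0.0546 by edgeR) and passed with DESeq2 (0.0146), limma-voom (0.0217) and no filter beyond 1 count (0.0185), while Srebf2 (-0.13), Osbp (0.05) and the liver X receptor genes Nr1h2 (-0.02) and Nr1h3 (0.28) did not pass.

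Of 9 genes controlled through those sensors, tau raised 1 of 9 in Ch25h+/+ mice, against 1.47% of all genes, namely Apoe, the main apolipoprotein of brain lipoprotein particles, from 1570.9 ± 126.8 to 2456.4 ± 491.2 CPM (0.64, adjusted p = 0.00561 by edgeR), with a list median of 0.05 against -0.01 over all genes. Abca1, a cholesterol exporter, was 0.69 higher (adjusted p = 0.0501 by edgeR) and passed with DESeq2 (0.00533), limma-voom (0.000808), GC-corrected offsets (0.0379) and no filter beyond 1 count (0.00124). Its Tau+ libraries ran from 27.1 to 57.6 CPM, overlapping the Tau- ones. Of 14 other oxysterol and bile acid synthesis genes tested, of 18 listed, 0 passed in Ch25h+/+ mice by edgeR, DESeq2 or limma-voom (median 0.00). Scp2 alone had an unadjusted p under 0.05 in edgeR, against 1664 of 17736 genes. Hsd11b1 was 0.19, and Cyp7a1, the first enzyme of hepatic bile acid synthesis, was at 0 in all 8 Ch25h+/+ libraries.

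Among 11 genes of STING and type I interferon signalling, tau raised 1 of 11 in Ch25h+/+ mice, against 1.47% of all genes, with a list median of 0.25 against -0.01 over all genes. Irf7, an interferon-induced transcription factor, went from 2.17 ± 0.551 to 7.53 ± 2.65 CPM (1.79, adjusted p = 0.0029 by edgeR). Tmem173, which encodes STING, was 0.61 higher without overlap (adjusted p = 0.219), and Ifnar1 was -0.03. In the same comparison the summed microglia markers were 1.31 times and the mural cell and fibroblast markers 1.36 times higher, both without overlap. Border macrophage markers were 1.66 times higher with overlap, with 1 of 6 past the threshold, against 1.47% of all genes called higher. The part of these cells in the rises of Npc2, Apoe and Irf7 was not tested. Without Ch25h+/+ Tau+ replicate 1 these rises were 0.50, 0.62 and 1.52 (edgeR adjusted p of 0.00533, 0.0165 and 0.00902).

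In Ch25h-/- mice tau called 0 of these 50 pathway genes by edgeR, DESeq2 and limma-voom, against 0.0395% of all genes called by edgeR. At an unadjusted p under 0.05 in edgeR were 3 of 50, against 652 of 17736 genes. Loss of Ch25h in Tau+ mice called 7 of 50, against 3.55% of all genes: Npc2 (-0.55), Srebf1 (-0.57), Apoe (-0.84), Irf7 (-1.15), Ifnar2 (-0.42) and Por (-0.27), an electron donor of microsomal cytochromes, fell, and Idi1 (0.49), of cholesterol synthesis, rose, with edgeR adjusted p of 0.00112 to 0.0447. Library class as a covariate left Ch25h-/- Tau+ replicate 1 alone against the Ch25h+/+ Tau+ libraries, so that fit cannot separate library class from that 1 library. Its log2 differences were -0.63 for Npc2, -0.43 for Srebf1, -0.75 for Apoe, -1.43 for Irf7, -0.42 for Ifnar2, -0.18 for Por and 0.40 for Idi1. With GC-corrected offsets Npc2 (-0.50), Apoe (-0.62) and Ifnar2 (-0.40) passed, and Srebf1 (-0.38), Irf7 (-1.0), Por (-0.08) and Idi1 (0.33) did not. With the 2 groups alone Por (adjusted p = 0.141), Idi1 (0.0616), Irf7 (0.126) and Ifnar2 (0.109) did not pass, nor did Por (0.0689) and Ifnar2 (0.0553) with no filter beyond 1 count. DESeq2 and limma-voom each called 9 of 50, against 8.46% and 10.6% of all genes in the same order, the same 7 with Nr1h2 and Irf9 in DESeq2 and with Nr1h2 and Abca1 in limma-voom. By edgeR Nr1h2 was -0.33, but -0.13 with the class covariate and -0.10 with GC-corrected offsets; Irf9 was -0.49, and -0.17 and -0.47 in the same order; Abca1 was -0.38, and -0.54 and -0.43. The 7 microglia markers, 3 of which (Csf1r, Tmem119 and Cx3cr1) fell in the same comparison, had a ratio of mean summed CPM of 0.805 without overlap. The ratio was 0.916 for mural cell and fibroblast markers, also without overlap. It was 0.716 for border macrophage markers (1 of 6 past the threshold, against 3.55% of all genes) and 0.821 for oligodendrocyte markers (0 of 6 above 0, against 50.7%), with overlap. The part of these cells in the results was not tested.

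Of these calls, 4 were lost when a single library was left out, while over the 16 fits the log2 differences were -0.31 to -0.23 for Por, 0.43 to 0.53 for Idi1, -1.60 to -0.89 for Irf7 and -0.47 to -0.39 for Ifnar2. Ch25h+/+ Tau+ replicate 4 was such a library for all 4, with an adjusted p of 0.119 for Por, 0.0672 for Idi1, 0.0812 for Irf7 and 0.0646 for Ifnar2. So were Ch25h-/- Tau+ replicates 3 and 4 (Por 0.109 and 0.121, Idi1 0.0535 and 0.0522, Irf7 0.131 and 0.125, Ifnar2 0.0849 and 0.0577). Ch25h+/+ Tau+ replicate 1 was one for Por (0.0898), Irf7 (0.12) and Ifnar2 (0.0551), Ch25h-/- Tau+ replicate 2 for Por (0.116) and Ifnar2 (0.063), Ch25h-/- Tau+ replicate 1 for Irf7 (0.0503), and Ch25h+/+ Tau- replicates 1, 2 and 3 for Por (0.0519, 0.0524 and 0.0512). In Tau- mice Ch25h loss called 0 of 50 by edgeR, against 1.03% of genes. At an unadjusted p under 0.05 were 9 of 50, against 3700 of 17736 genes: Por, Nr1h2, Srebf2, Ifnar2, Idi1, Scap, Srebf1, Apoe and Npc2. All genes called in Tau+ except Irf7 are among them, with the same sign, such as Srebf1 (-0.25) and Npc2 (-0.19), both without overlap, and Idi1 (0.26), with overlap. With the 2 groups alone edgeR called Por (adjusted p = 0.0344) and Nr1h2 (0.0341), and with no filter beyond 1 count Nr1h2 (0.0455). DESeq2 and limma-voom each called 3 of 50 (Por, Srebf2 and Nr1h2), against 5.91% and 7.83% of all genes in the same order. By edgeR these were -0.27, -0.21 and -0.34, against -0.06, -0.02 and -0.08 with GC-corrected offsets. With the class covariate they were -0.16, -0.11 and -0.06, values that Ch25h-/- Tau+ replicate 1 sets, since class and genotype coincide in Tau- mice. The interaction called 0 of 50 with all 3 tools, with 11 at an unadjusted p under 0.05 in edgeR, against 0.0338% of all genes called by edgeR and 733 of 17736 at that unadjusted p.

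**Figure D5:**
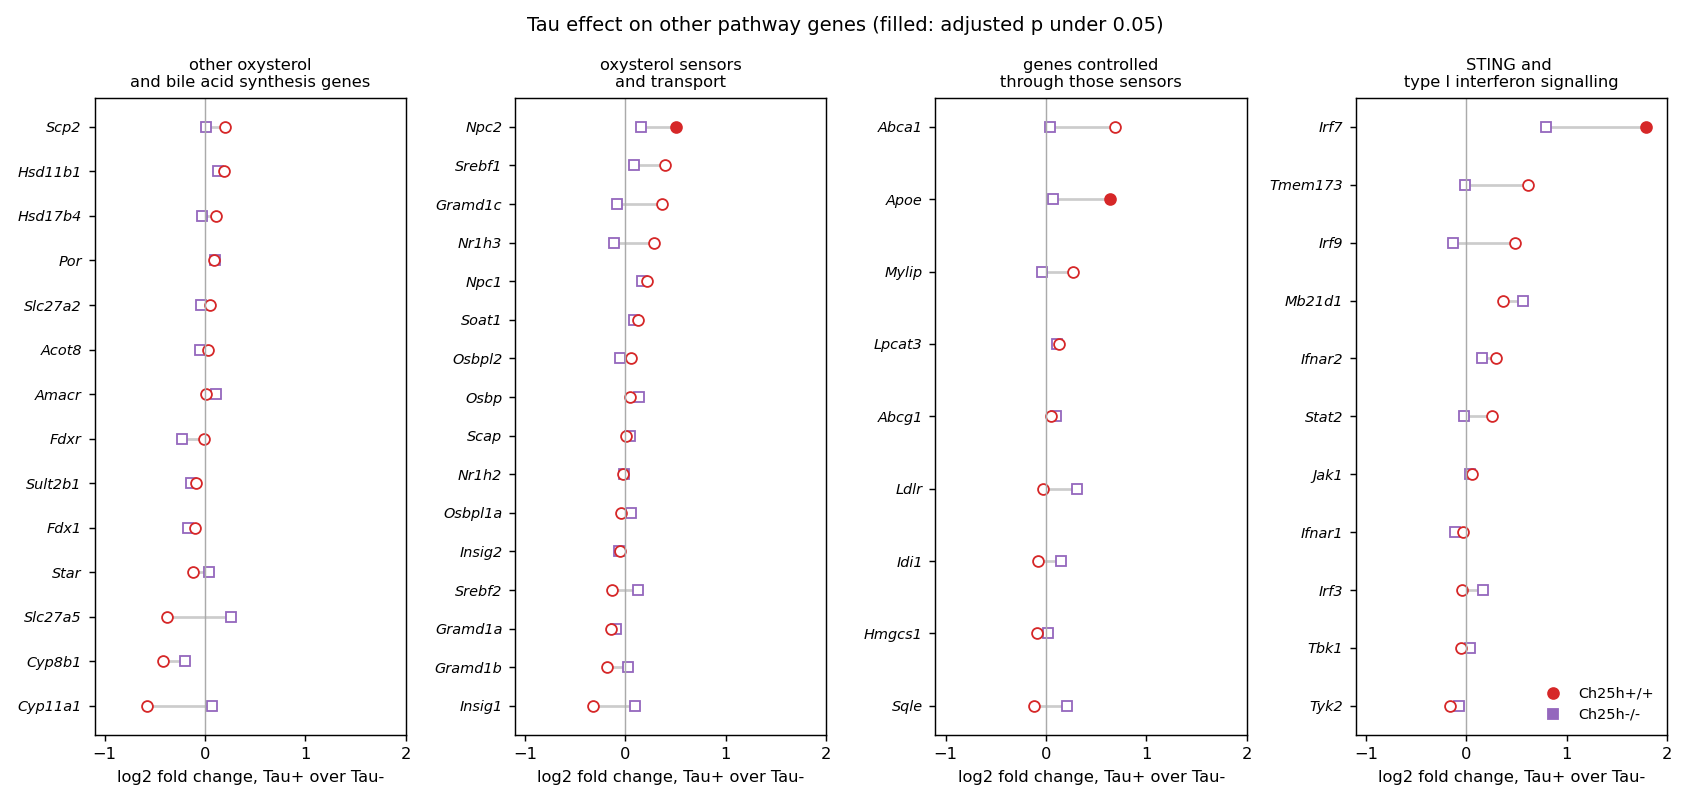
Log2 fold change of Tau+ over Tau- (x axis) for the other pathway genes in 4 lists (panels, 1 row per gene), as red circles for Ch25h+/+ and purple squares for Ch25h-/-, filled where the adjusted p was under 0.05. Irf7 (1.79), Apoe (0.64) and Npc2 (0.50) are the filled circles, and no square is filled.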

How the data were processed

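RNA of 16 mouse brain libraries (4 groups of 4) was measured. The deposited table holds raw counts per gene; STAR 2.7 and the builds GRCm38 and mm10 are named per the submitters' processing notes, without roles, and the counting tool, its use of strand and its treatment of ambiguous reads are not given in the sources used here. Libraries were made with a SMARTer kit, per the labels' protocols. Groups came from the genotype labels; replicate numbers follow accession order.

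Counts were scaled by TMM and filtered with filterByExpr over the 4 groups, leaving 17736 genes that include 6 of the 7 members; Hsd3b7 was left out. edgeR 4.0.16 (quasi-likelihood F test, R 4.3.3) was fitted to all 16 libraries giving each group its own mean, with Benjamini-Hochberg adjustment across every tested gene (threshold 0.05). CPM uses TMM-scaled library sizes, and exon lengths are from GENCODE on GRCm38. Alternatives were DESeq2 1.42.0, limma 3.58.1 voom with quality weights, other scaling and filters, a covariate for library class, the 2 groups alone, each library left out and, added after the data were seen, GC-corrected offsets.

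Named were the 7 members, pathway genes past the threshold (at most 6 per list and comparison), a fixed set of sterol and interferon genes, Prnp and the 3 genes most like each member. The members and lists were chosen with earlier results of these data known. Promoters of 5 of the 7 members matched RefSeq. Some genes of the pathway and marker lists are not reported here and were left out of the lists and their counts.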

Additional observations from a re-analysis of the deposited data

Results flagged for a closer look

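In 26 groups of 4 libraries, a library was looked for whose gap to its nearest neighbour exceeded Dixon's 95% critical share of the group's range; chance alone gives about 1 such group in 20, and 2 were found. The highest Hsd3b7 library of Ch25h-/- Tau- had 0.235 CPM, from 4 counts, while the other 3 were at 0. The lowest Cyp27a1 library of Ch25h+/+ Tau- had 4.02 CPM, against 5.94 to 6.04 in the other 3.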

How the results depend on the processing

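No paired analysis was possible because the labels give no shared replicate numbers. For tau in Ch25h+/+, 277 genes passed; 498 did with limma-voom, 424 with DESeq2 and 160 to 299 with a library left out, while 1 member passed, against 2 with limma-voom, 0 with a mean of at least 50 counts and 0 to 1 with a library left out. For tau in Ch25h-/-, 7 genes passed, against 28 with no filter beyond 1 count, 2 with a mean of at least 50 counts, 14 with DESeq2 and 6 to 13 with a library left out. For Ch25h loss in Tau+, 629 genes passed, against 10 with the class covariate, 197 with GC-corrected offsets, 106 with the 2 groups alone, 1883 with limma-voom, 1501 with DESeq2 and 108 to 1691 with a library left out; 1 member passed, against 0 with a mean of at least 50 counts, 0 with the class covariate, 2 with limma-voom and 1 with each library left out. For Ch25h loss in Tau-, 182 genes passed, against 522 with no filter beyond 1 count, 15 with GC-corrected offsets and 1229 with the 2 groups alone. With limma-voom 1388 passed, with DESeq2 1048 and with a library left out 3 to 1306. Of the members 1 passed, against 0 with a mean of at least 50 counts, GC-corrected offsets or the 2 groups alone. With limma-voom 2 members passed, and with a library left out 0 to 2. The interaction passed for 6 genes, against 57 with no filter beyond 1 count, 3 with the class covariate, 55 with DESeq2 and 0 to 22 with a library left out. The member that passed for Ch25h loss was Ch25h itself, for which DESeq2 gave no adjusted p; the 1 member it called was Gpr183 in Tau+ and Cyp46a1 in Tau-. With a mean of at least 50 counts Ch25h and Gpr183 were not tested, and with the 2 Tau- groups alone Ch25h was not tested; for the other changes the cause was not tested.

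Signs turned only for small differences that did not pass. Cyp46a1 for Ch25h loss in Tau+ was 0.02 with the class covariate, 0.14 with GC-corrected offsets, 0.00 with limma-voom and -0.10 to 0.03 with a library left out. Cyp7b1 for Ch25h loss in Tau- was -0.24 with the class covariate, -0.10 with GC-corrected offsets and -0.01 to 0.14 with a library left out, and for tau in Ch25h-/- 0.03 with the class covariate and -0.11 to 0.02. Cyp39a1 for Ch25h loss in Tau- was 0.14 with the class covariate, 0.07 with limma-voom and -0.32 to 0.19 with a library left out; for tau it was -0.06 to 0.24 in Ch25h+/+ and -0.34 to 0.16 in Ch25h-/-, and for the interaction -0.42 to 0.08. Gpr183 for Ch25h loss in Tau- was -0.01 with limma-voom and -0.10 to 0.25 with a library left out. Depth limits Ch25h, Gpr183 and Hsd3b7, at 0 to 65 counts per library.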
